A study of Rattus norvegicus with 12 samples.

Results

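Genes of the fibroblasts that line the brain and its vessels, 10 in all, were followed in the prefrontal cortex of young female rats. They were chosen by name: 3 fibrillar collagen chains (Col1a1, Col1a2, Col3a1), 3 small leucine-rich proteoglycans (Dcn, Lum, Ogn), the adhesive glycoprotein fibronectin (Fn1), the surface protein Islr, the transporter Slc6a13 and the enzyme Aldh1a2. Of 26207 gene names on the array these are 10, read by 12 probes. By their gene name in the files 9 were found, and Islr carries an older locus name there and was matched through its RefSeq accession. The set was proposed because a wider fibroblast list lay lower after ketamine, so the ketamine and saline groups are compared here by their values alone, with no test. The betamethasone group and the ketamine group each also enter a comparison with control, so the p-values there are not independent of that choice.

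RNA came from female Sprague-Dawley rats, 4 animals in each of 3 groups. Dams had been given 2 injections on gestational day 15, of saline for the control group and of betamethasone, a synthetic corticosteroid, at 0.4 mg/kg each for both other groups. Pups were given saline (control and betamethasone groups) or ketamine, a blocker of NMDA receptors, at 35 mg/kg (betamethasone with ketamine) on postnatal day 14, a step the protocol describes for rats showing infantile spasms. The animals were 15 days old when cortex was collected, an age that 1 field of the labels contradicts. All animals share the sex, the strain and the tissue, and no group had ketamine without betamethasone. Litters had been culled to females, and the labels do not say which pups shared a dam, so the p-values measure the spread between these animals and not between litters.

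The samples were read on 6 arrays of 2 animals each, always of 1 group, with odd replicates in Cy3 and even ones in Cy5. The control arrays lay on a slide of their own, and an effect of the slide cannot be told apart from one of treatment where controls are compared, whereas both betamethasone groups shared a slide. In each sample 71.4% to 81.5% of 42877 spots were well above background. On the array of ketamine samples 1 and 2, areas rich in departing spots held 5.49% of the spots, and no spot of a member lay in such an area on any array. Levels are given as normalised log2 intensity, in which a step of 1 is a doubling, and they compare samples for 1 probe and not 1 gene with another.

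Fibroblasts of the meninges, the membranes around the brain, and of the sheath of larger vessels make most of the fibrillar collagen of the brain, whose own tissue holds little. Collagen I is built from the chains of Col1a1 and Col1a2, collagen III from that of Col3a1, and small proteoglycans such as decorin, lumican and osteoglycin bind the fibrils and help to set their width. Aldh1a2 makes retinoic acid, which meningeal cells supply to the developing cortex, and Slc6a13 carries GABA and taurine at the brain's borders. In a dissected piece of cortex, transcripts of these cells arrive with whatever membrane and vessel the piece holds. In such bulk RNA, fewer cells of a type and less RNA in each cell cannot be told apart.

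The label of the set was checked against its markers. All 10 genes were well above background in all 12 samples. Of the wider list of meningeal fibroblast markers, 37 were on the array, 29 were well above background in all 12 samples and 2 in none. Markers of cortical neurons (11 of 11), astrocytes (8 of 8) and microglia (8 of 8) were likewise found in all 12 samples, so the tissue label was met as well. Choroid plexus markers were found in all samples for 4 of 10 and in none for 3, and border macrophage markers for 3 of 8 and 1. Endothelial markers were found in all 12 samples for 11 of 13, and pericyte and smooth muscle markers for 12 of 13. Detection alone therefore does not tell fibroblasts from vessel cells as the source of the members' RNA.

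The probes are 60 bases long, and 4 of them are printed in pairs with the bases they share. Probes were compared only with each other, and whether a probe meets a second transcript was not tested. The first pair reads Col1a1 (probe A_44_P350521, rn4 chr10:83637956-83638015, plus strand) and Col3a1 (probe A_44_P146518, rn4 chr9:44317465-44317524, plus strand). Over 26 overlapping bases, 21 are the same and are in capitals.
Col1a1: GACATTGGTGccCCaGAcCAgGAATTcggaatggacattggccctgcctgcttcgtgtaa
Col3a1: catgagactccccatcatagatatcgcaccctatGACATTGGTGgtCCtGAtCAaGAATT
Lum and Dcn, neighbours on chromosome 7, have probes whose longest shared run is 12 bases, in capitals. The Dcn probe (A_42_P647599, rn4 chr7:35037331-35041132) covers 3802 bases of genome with its 60 bases, so it crosses an intron and reads spliced RNA. The Lum probe (A_44_P458627) lies at rn4 chr7:35086409-35086468.
Dcn: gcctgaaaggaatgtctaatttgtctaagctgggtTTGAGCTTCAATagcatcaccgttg
Lum: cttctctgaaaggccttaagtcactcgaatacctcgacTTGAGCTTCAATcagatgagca

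Col1a1 encodes the main chain of collagen I. Its brighter probe (A_64_P040278, rn4 chr10:83639260-83639319), which was the one tested, gave log2 intensities of 12.30, 12.12, 11.60 and 12.22 in control replicates 1 to 4. They were 12.42, 11.04, 12.16 and 12.88 after betamethasone, and 11.12, 11.65, 11.91 and 11.82 after betamethasone with ketamine. Betamethasone replicate 2 and ketamine replicate 1 were the low samples, betamethasone replicate 4 the high one, and all 3 groups overlapped. The log2 change from control was 0.06 after betamethasone (SE 0.56, 95% interval −1.16 to 1.29, limma adjusted p = 0.981). With ketamine as well it was −0.43 (SE 0.56, limma adjusted p = 0.728).

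The other Col1a1 probe, whose sequence is printed above, starts 1304 bases upstream in the transcript. Its log2 intensities were 11.40, 10.67, 11.27 and 11.71 in control, 12.18, 10.91, 11.83 and 11.80 after betamethasone, and 11.58, 11.92, 11.19 and 11.06 with ketamine. The probes of this gene did not order the samples alike: ketamine replicate 1 was among the lowest by the tested probe and in mid-range by the other. Their deviations from the group means correlated at r = 0.43 over the 12 samples. By the second probe the log2 changes from control were 0.42 after betamethasone and 0.18 with ketamine, so the direction with ketamine depends on the probe.

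Col1a2 encodes the partner chain of collagen I (probe A_43_P12783, rn4 chr4:29428206-29428265). Its log2 intensities were 13.09, 12.75, 12.78 and 13.26 in control, 13.64, 12.44, 12.84 and 13.02 after betamethasone, and 12.85, 13.40, 12.60 and 12.52 with ketamine. Both the highest and the lowest of the 12 values came from the betamethasone group, and from 1 array, that of replicates 1 and 2. The log2 change from control was 0.02 after betamethasone (SE 0.44, limma adjusted p = 0.993) and −0.12 with ketamine (SE 0.44, limma adjusted p = 0.911).

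Col3a1 encodes the single chain of collagen III. Its log2 intensities were 12.78, 12.40, 11.82 and 12.08 in control and 12.61, 11.81 and 12.23 in betamethasone replicates 1, 2 and 4, while the spot of replicate 3 was marked as an outlier by the scanner software and left out. With ketamine they were 12.03, 12.21, 11.91 and 11.77. The ketamine animals lay close together (SD 0.19, n = 4), and overlapped the wider range of the control animals (SD 0.41, n = 4). The log2 change from control was −0.02 after betamethasone (SE 0.33, 3 values against 4, limma adjusted p = 0.992) and −0.29 with ketamine (SE 0.32, limma adjusted p = 0.680).

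Decorin, encoded by Dcn, was printed in 10 spots per array, which shows the error of the spots beside that of the animals. Its log2 intensities were 10.36, 10.22, 9.61 and 9.53 in control, 10.39, 9.58, 10.15 and 9.997 after betamethasone, and 10.18, 10.15, 9.77 and 9.68 with ketamine. Control replicates 1 and 2, on 1 array, were both above control replicates 3 and 4, on the other, with array means of 10.29 and 9.57. The spots of 1 sample differed with an SD of 0.13 to 0.24 in the 10 samples that kept all 10 spots, whereas animals of a group differed with an SD of 0.26 to 0.42. In ketamine samples 1 and 2, 9 and 8 spots were used, with SDs of 0.05 and 0.03. The log2 change from control was 0.10 after betamethasone (SE 0.27, limma adjusted p = 0.930) and 0.01 with ketamine (SE 0.27, limma adjusted p = 0.985).

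Lumican, encoded by Lum, had log2 intensities of 8.77, 8.85, 8.33 and 8.41 in control, 8.50, 8.36, 8.61 and 8.59 after betamethasone, and 8.72, 8.66, 8.34 and 8.51 with ketamine. It repeated the split of the control arrays seen for decorin. It had the narrowest spread of the 10 genes, and its interval is the tightest: the log2 change after betamethasone was −0.08 (SE 0.15, 95% interval −0.41 to 0.26, limma adjusted p = 0.905). With ketamine it was −0.03 (SE 0.15, 95% interval −0.37 to 0.31, limma adjusted p = 0.932).

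Osteoglycin, encoded by Ogn (probe A_43_P16740, rn4 chr17:20987215-20987274, minus strand), had log2 intensities of 9.92, 10.10, 9.63 and 9.89 in control. They were 10.62, 9.17, 9.77 and 9.76 after betamethasone and 10.46, 10.38, 9.53 and 9.12 with ketamine. In the ketamine group both animals of the first array were about 1 log2 unit above both of the second (array means 10.42 and 9.32), and the control animals lay between them. The group means hardly differed: the log2 change was −0.06 after betamethasone (SE 0.48, limma adjusted p = 0.981) and −0.01 with ketamine (SE 0.48, 95% interval −1.07 to 1.04, limma adjusted p = 0.992).

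Fibronectin, encoded by Fn1, links cells to matrix and is also made by vessel cells. The tested probe (A_44_P681660, rn4 chr9:70702316-70702375, minus strand) gave log2 intensities of 10.53, 10.63, 10.42 and 10.54 in control. Values were 10.19, 9.89, 10.57 and 10.54 after betamethasone and 10.29, 10.72, 10.49 and 10.64 with ketamine. Replicates 1 and 2 of the betamethasone group, which shared an array, were the 2 lowest of the 12 samples, and replicates 3 and 4 lay within the control range. The log2 change was −0.24 after betamethasone (SE 0.20, limma adjusted p = 0.710) and 0.00 with ketamine (SE 0.20, limma adjusted p = 0.996). A second probe (A_64_P077570) read between 7.43 and 7.68 in all samples and was well above background in 0, 2 and 3 of 4 samples of the groups, in the same order, so its changes of 0.05 and 0.09 are near the floor of the measurement.

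Islr encodes a membrane protein with leucine-rich repeats and is used as a marker of fibroblasts and their precursors. Its probe (A_43_P10944), to which the files give no genome position, had log2 intensities of 11.78, 12.04, 11.30 and 11.44 in control. Values were 12.04, 11.28, 11.78 and 11.63 after betamethasone, and 11.49, 11.63, 11.45 and 11.47 with ketamine. The ketamine animals spanned a narrow range (SD 0.08, n = 4) inside that of the controls (SD 0.33, n = 4). The log2 change was 0.04 after betamethasone (SE 0.27, limma adjusted p = 0.974) and −0.13 with ketamine (SE 0.27, limma adjusted p = 0.847).

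Slc6a13, which encodes the GABA and taurine carrier GAT2 of the meninges (probe A_44_P313272, rn4 chr4:157771827-157771886), had log2 intensities of 9.22, 8.97, 9.11 and 9.64 in control. They were 9.19, 8.53, 9.38 and 9.37 after betamethasone and 9.50, 9.57, 9.04 and 8.67 with ketamine. As for Ogn, the ketamine animals split by array, with the first array higher. The log2 change was −0.12 after betamethasone (SE 0.34, limma adjusted p = 0.933) and −0.04 with ketamine (SE 0.34, limma adjusted p = 0.966).

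Aldh1a2 (probe A_44_P317912, rn4 chr8:75771061-75771120) had log2 intensities of 8.76, 8.77, 8.58 and 8.71 in control, 9.51, 8.71, 9.12 and 8.92 after betamethasone, and 9.11, 9.19, 8.70 and 8.53 with ketamine. Of the betamethasone animals, 3 of 4 were above every control animal, and replicate 2 was within the control range. This gave the highest point estimate of the 10 genes, a log2 change of 0.36 or 1.28-fold (SE 0.26, 95% interval −0.21 to 0.93, limma adjusted p = 0.635). With ketamine the log2 change from control was 0.18 (SE 0.26, limma adjusted p = 0.760).

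**Figure D1:**
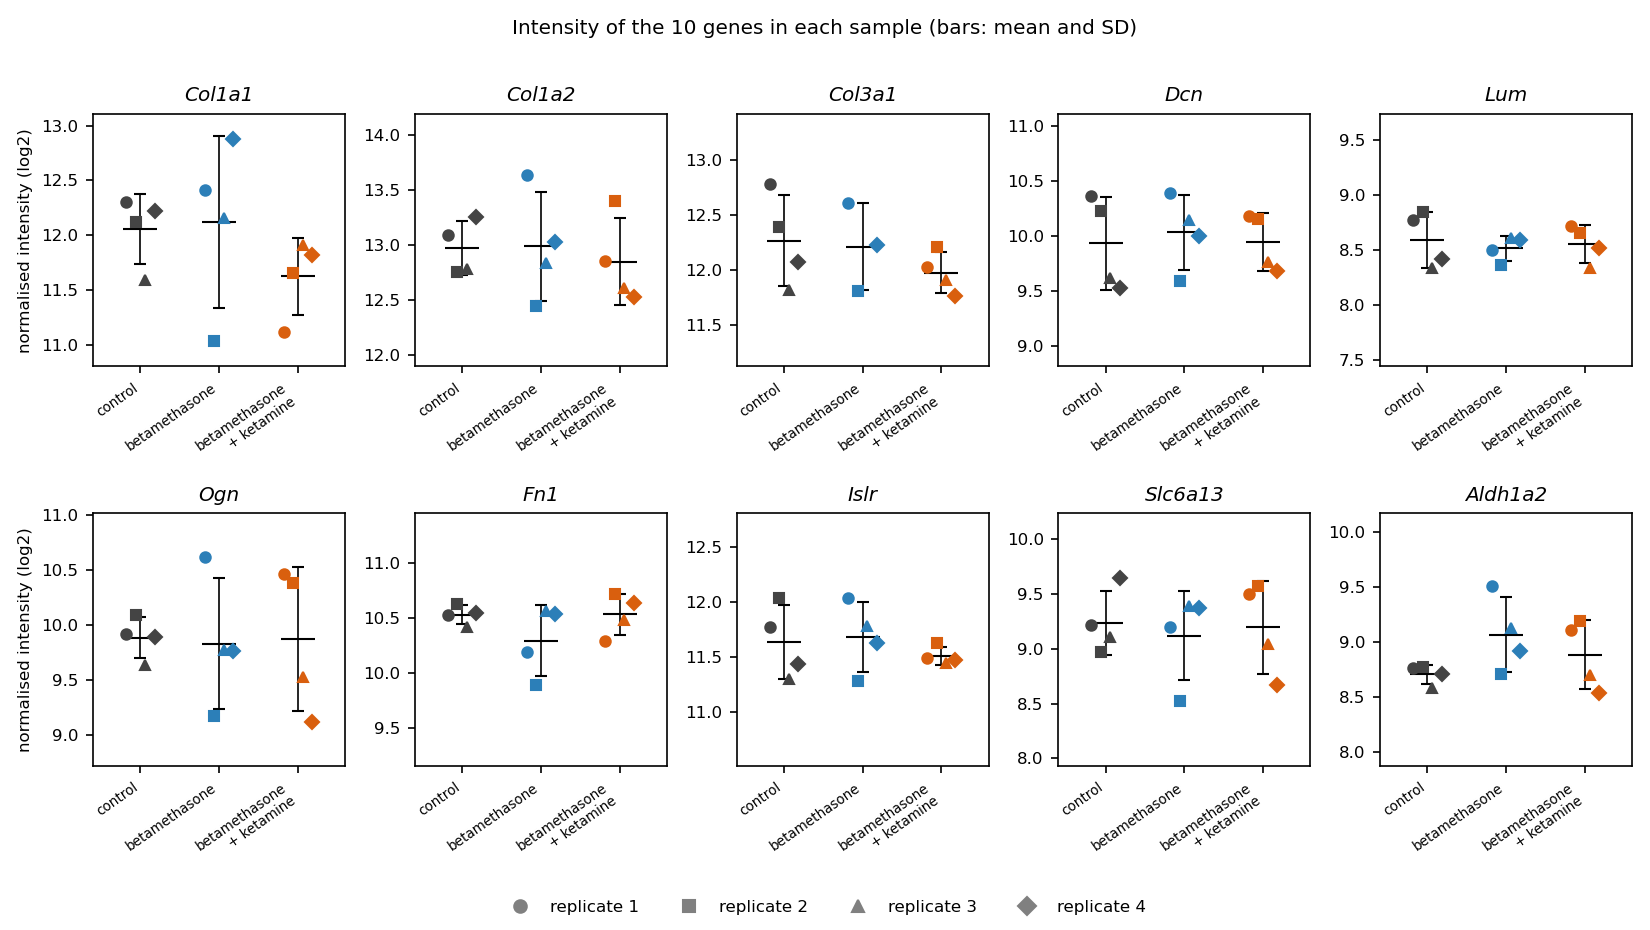
Normalised log2 intensity of the 10 genes (tested probe) in each of the 12 samples, by group; symbols mark replicates 1 to 4, and bars give the mean and SD of a group (n = 4, or 3 for Col3a1 after betamethasone). Every panel spans the same number of log2 units, and in each the groups overlap.

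Taking the genes as a set, none of the 10 passed in limma after betamethasone, where 0.246% of 18688 genes passed (46 genes). None passed with ketamine as well, where 0.091% did (17 genes). At an unadjusted p under 0.05 there were also 0 of 10 in both comparisons, against 11.7% and 14.1% of all genes. Control and treated groups overlapped for all 10 genes in both, while they did not overlap for 18% and 15.8% of all genes. With so few members, a count of 0 lies near what these shares give.

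The direction was mixed. After betamethasone 5 members were lower and 5 higher (median of their log2 changes 0.00), and over all genes 44% were lower with a median of 0.03. With ketamine as well 7 were lower and 3 higher than control, with a median of −0.04, where 36.2% of all genes were lower and their median was 0.07. Under processed signals scaled to the 75th percentile these medians were 0.10 and 0.05 (all genes 0.10 and 0.19), and under loess with channel medians set equal 0.29 and −0.20 (all genes 0.07 and 0.02), so no direction of the set is read from them. The comparisons share the control animals, and each holds a group of the comparison behind the choice of the set. The median standard error was 0.30 for the members in both comparisons, against 0.15 for all genes, so a given change was harder to see in these genes than in most. After betamethasone the 95% interval of Col1a1 ran up to 2.44-fold, and that of Lum up to 1.20-fold.

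Between ketamine and saline after betamethasone, the comparison behind the choice of the set, the log2 differences were −0.50 for Col1a1, −0.28 for Col3a1 and −0.14 for Col1a2. They were −0.18 for Aldh1a2, −0.17 for Islr and −0.09 for Dcn, and above 0 for Lum (0.04), Ogn (0.04), Slc6a13 (0.08) and Fn1 (0.24). Thus 6 of 10 were lower, with a median of −0.11, where 37.1% of all genes were lower with a median of 0.05. Under loess with channel medians set equal 9 of 10 were lower with a median of −0.39 (all genes −0.10), and 7 of 10 with processed signals and in the deposited value table (medians −0.12 and −0.15). No gene passed in this comparison (0% of 18688 genes in limma, with 3.23% at an unadjusted p under 0.05). All 10 members overlapped between the groups, whereas 4.07% of all genes did not, and nothing is read from that here. Without betamethasone replicate 1 the members' median was 0.07, without betamethasone replicate 2 it was −0.30, and without the array of ketamine replicates 3 and 4 it was 0.14. Col1a1, at the low end, had −0.24 by its other probe.

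**Figure D2:**
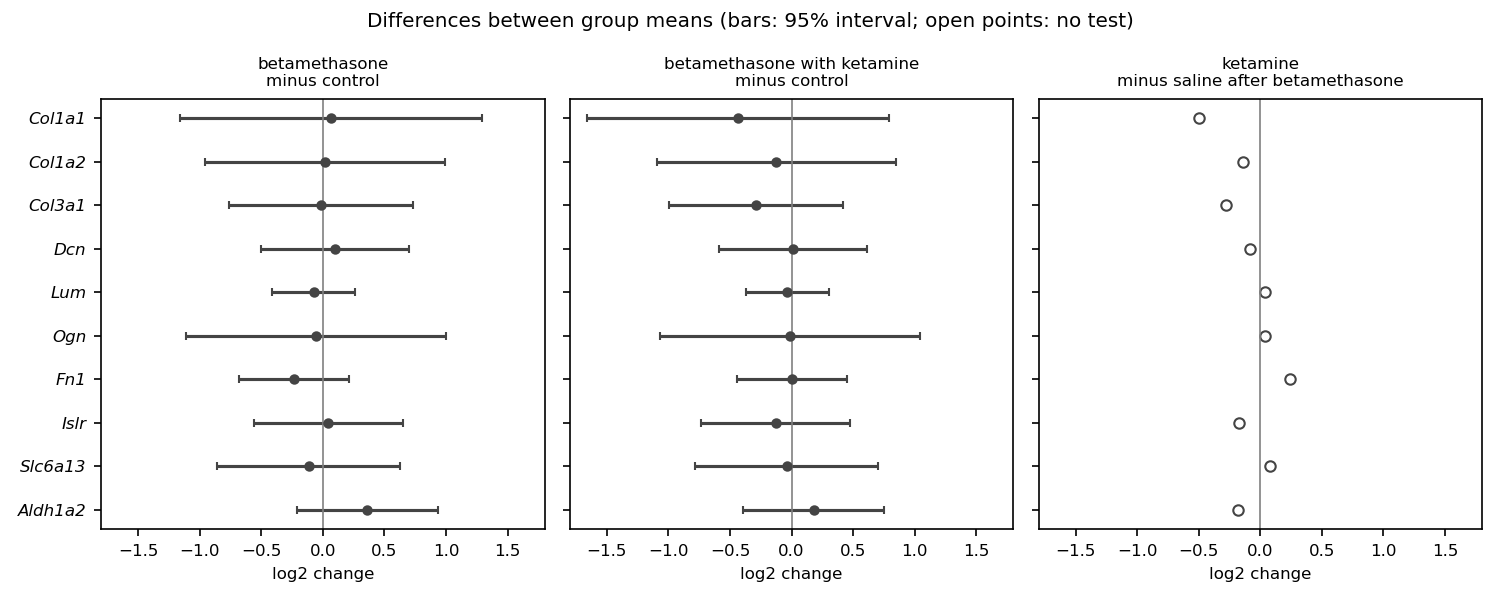
Log2 differences between group means for the 10 genes in the 3 comparisons; bars are 95% intervals from limma, and open points carry no test because that comparison chose the genes. Every interval in the comparisons with control spans 0, from the narrowest for Lum to the widest for Col1a1.

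What the genes had in common was a wide spread between animals of 1 group, in which they moved together. The median SD within groups was 0.35 for the members on the log2 scale and 0.16 for all genes. Ranked among all tested genes by this SD, Col1a1 and Ogn stood at percentiles 96.5 and 96.4, Col1a2 at 93.2 and Slc6a13 at 92.4. Dcn and Col3a1 stood at 90.8 and 90.4, and Aldh1a2, Islr, Fn1 and Lum at 83.4, 82.8, 73 and 62.9. The genes ranked were not matched for brightness, and its part in the ranks was not tested. These ranks and the correlations below describe these 12 samples, which share 6 arrays by pairs, and carry no p.

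The clearest case was the array of betamethasone replicates 1 and 2. Replicate 1 was above replicate 2 for 10 of 10 members, by 0.14 (Lum) to 1.44 (Ogn) on the log2 scale with a median of 0.80. Over all genes 49.5% were higher in replicate 1, with a median of 0.00. Both animals had the same treatment and were read on the same array, in different dyes. Replicate 1 was in Cy3, and on the other 5 arrays the Cy3 animal was higher for 5 of 10, 1 of 10, 7 of 9, 3 of 10 and 7 of 10 members.

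Whole arrays differed as well. In the control group the first array was higher for 8 of 10 members (median log2 gap 0.27), and in the ketamine group also for 8 of 10 (median 0.36, highest for Ogn at 1.096). Over all 18688 genes the first array was higher for 8913 in control (median gap −0.01) and for 12120 in the ketamine group (median 0.09), so the ketamine arrays differed in the same direction for most genes. In the betamethasone group it was higher for 3 of 10 members (median −0.07) and for 9520 of all genes. The ketamine array that was higher is the one with areas of departing spots, in which no member's spot lies. With spots in such areas left out of the fit, the members' median log2 changes from control were 0.00 and −0.04. Between ketamine and saline it was −0.11. The part of those areas in the gap between the arrays was not tested.

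**Figure D3:**
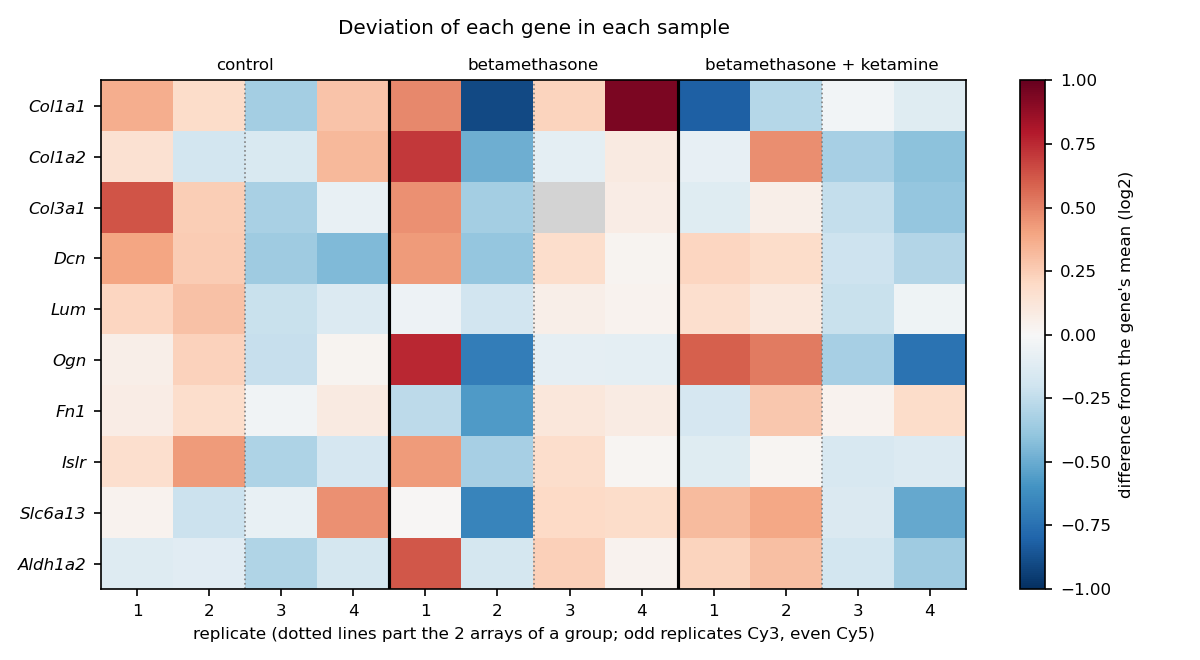
Difference of each gene from its mean over the 12 samples (log2 colour scale, red higher, blue lower), with samples by group and replicate; grey is the spot left out. Betamethasone replicates 1 and 2, on 1 array, have the highest and the lowest mean over the genes (0.36 and −0.47). Other columns, such as control replicate 3, are also mostly of 1 colour, and the columns do not sort by group.

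Over pairs of members, all 45 correlations of the deviations from group means were above 0, with a median r of 0.52, where the median of the members' correlations with all genes was 0.06. The closest pairs were Ogn with Aldh1a2 (r = 0.97), Col3a1 with Dcn (0.93, 11 samples) and Dcn with Islr (0.86). The loosest was Ogn with Fn1 (0.09). Col1a1 with Col1a2, whose products join in 1 molecule, stood at 0.45 by the tested Col1a1 probe. The other Col1a1 probe, which did not order the samples alike, was not used in these correlations, so that value depends on the probe chosen. Without the array of betamethasone replicates 1 and 2, the median r was 0.38 and 36 of 45 pairs were above 0. Leaving out any of the other 5 arrays gave a median r of 0.62 to 0.67.

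Genomic neighbours among tested genes were compared in the same way, in GRCr8 gene order. Dcn and Lum adjoin on chromosome 7 and correlated at r = 0.83. Col3a1 adjoins Col5a2, a chain of collagen V, on chromosome 9 (r = 0.82), and Ogn adjoins Omd, another proteoglycan of the family, on chromosome 17 (r = 0.68). Slc6a13 and its neighbour Slc6a12, a betaine carrier, were at r = 0.33. Neighbours outside these families ranged from −0.31 (Bet1 beside Col1a2) to 0.46 (Sgca beside Col1a1), with Gulp1 beside Col3a1 at 0.42, Atic beside Fn1 at 0.10 and Polr2m beside Aldh1a2 at −0.13.

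The 5 genes outside the set whose profile over the 12 samples was most like the members' mean were Gjb2 (Pearson r = 0.94), Tfap2b (0.93), Slc22a6 (0.91), Fmod (0.90) and Cd74 (0.90). Gjb2 encodes the gap junction protein connexin 26, Tfap2b a transcription factor, Slc22a6 an organic anion transporter, Fmod fibromodulin and Cd74 the invariant chain of antigen presentation. Gjb2, Slc22a6 and Fmod also stand in the wider fibroblast list.

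The wider list of meningeal fibroblast markers followed the members closely (r = 0.94 between the 2 mean profiles within groups, and 0.96 without the array of betamethasone replicates 1 and 2). Of its 34 tested genes, 12 were lower and 22 higher after betamethasone (median log2 change 0.08). With ketamine as well, 18 were lower and 16 higher than control (−0.01). None passed in either comparison with control. Between ketamine and saline, the lean behind the choice of the set, 24 were lower and 10 higher (−0.10), given as a description. Bgn, another proteoglycan, was at 0.32 after betamethasone (SE 0.25, limma adjusted p = 0.671) and 0.14 with ketamine. Igf2, the growth factor made in the meninges, was at 0.34 (SE 0.43, limma adjusted p = 0.822) and 0.07 with ketamine. Crabp2, which binds retinoic acid, was at 0.33 (SE 0.50, limma adjusted p = 0.860) and −0.57 with ketamine (SE 0.50, limma adjusted p = 0.607). These genes, fixed by name, lie above the list's median after betamethasone. At its low end, and named after its values were seen, Twist1 was at −0.40 and −0.60 (SE 0.22, limma adjusted p = 0.502 and 0.305).

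No gene in the other matrix lists passed in either comparison with control. Of 27 other collagen chains, 12 were lower and 15 higher after betamethasone and 8 and 19 with ketamine. Col4a1, of basement membranes, was at 0.18 and 0.16 (log2 changes from control), Col5a2 at 0.14 and 0.06, and Col6a1 at −0.14 and −0.19. Col6a2, named after its values were seen, was at −0.20 and −2.03 (SE 0.75, limma adjusted p = 0.310 for the latter), with an SD of 1.94 in the ketamine group (n = 4) against 0.14 in control. Of 23 genes for collagen processing and crosslinking, 6 and 10 were lower. There the crosslinking enzyme Lox was at 0.07 and 0.04 and the matrix protein Sparc at 0.14 and −0.02. Serpinh1, the collagen chaperone, was at −1.16 after betamethasone with an SE of 1.31, since its betamethasone values had an SD of 2.41 (n = 4) and 1 animal was not well above background. P4hb and Crtap, also named after their values were seen, were at −1.27 and −1.34 with ketamine (limma adjusted p = 0.381 and 0.387), with SDs of 1.57 and 1.73 in the ketamine group (n = 4). Whether spots of Col6a2, P4hb or Crtap lie in the areas of departing spots was not examined.

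Among 11 genes of matrix breakdown, 5 were lower in each comparison with control, with Mmp2, a gelatinase, at 0.29 and 0.23 and its inhibitor family member Timp1 at 0.20 and 0.06. Matrix receptors had 8 and 9 of 13 lower, and Itgb1, the shared integrin chain, was at 0.15 and 0.33 (SE 0.15, limma adjusted p = 0.364 for the latter). In the TGF-beta pathway, a main inducer of collagen genes, 11 of 16 were higher after betamethasone and 15 of 16 with ketamine. Over all genes 44% and 36.2% were lower in these comparisons. The pathway had a median of 0.13 with ketamine, against 0.07 for all genes. Its mean deviation in log2 was 0.19 in both ketamine replicates 1 and 2, whose array has the areas of departing spots, and −0.02 in both replicates 3 and 4, against −0.13 to −0.05 in control. Its ligand Tgfb1 was at 0.27 and 0.12. Under 4 other scalings the TGF-beta median with ketamine stayed between 0.10 and 0.33, where that of all genes ran from 0.02 to 0.19. The medians of matrix breakdown, of matrix receptors and, with ketamine, of collagen processing changed sign under at least 1 of these scalings. The retinoic acid pathway of Aldh1a2 had 6 and 9 of 16 lower, and its median with ketamine was −0.04 and turned to 0.02 under processed signals.

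Carriers related to Slc6a13 had 3 and 2 of 5 lower. Slc6a11, a GABA carrier of astrocytes, was at 0.06 and 0.03 (log2 changes from control). Slc6a12 was at −0.97 and −0.89 (SE 0.48, limma adjusted p = 0.468 and 0.421), with an SD of 1.23 in control against 0.06 and 0.08 in the treated groups.

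Markers of other cells at the brain's borders followed the members from sample to sample to different degrees. The members' mean deviation was highest in betamethasone replicate 1 (0.36) and lowest in betamethasone replicate 2 (−0.47). Within groups the correlation with the members' mean was 0.89 for border macrophage markers, 0.80 for pericyte and smooth muscle markers and 0.71 for red cell markers. It was 0.62 for endothelial and 0.55 for choroid plexus markers. Without the array of betamethasone replicates 1 and 2 these became 0.81, 0.77, 0.34, 0.10 and 0.11. It was −0.08 for cortical neuron, −0.11 for astrocyte and 0.11 for microglia markers, and −0.69 for oligodendrocyte markers (−0.83 without that array). Leaving out any 1 of the 6 arrays moved the microglia value between −0.10 and 0.61, the astrocyte value between −0.50 and 0.26 and the neuron value between −0.44 and 0.16. Matrix lists followed the members too, at 0.76 for matrix receptors, 0.71 for matrix breakdown, 0.70 for other collagen chains and 0.69 for the TGF-beta pathway. Without the array of betamethasone replicates 1 and 2 these became 0.69, 0.59, 0.36 and 0.68. Lower values were those of the retinoic acid pathway (0.32), collagen processing (0.18) and the carriers related to Slc6a13 (0.08). Leaving out any 1 array moved them between 0.07 and 0.64, 0.01 and 0.46, and −0.13 and 0.72. The carriers were at 0.72 and 0.70 without the first and the second control array.

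As a mean deviation in log2, red cell markers ran from −0.49 to 0.09 in control, from −0.67 to 1.05 after betamethasone and from −0.52 to 0.59 with ketamine, with the extremes in betamethasone replicates 1 and 2 as for the members. Border macrophage markers ran from −0.19 to 0.04, from −0.23 to 0.28 and from −0.14 to 0.27. Choroid plexus markers ran from −0.06 to 0.19, from −0.27 to 0.11 and from −0.20 to 0.08. For pericyte and smooth muscle markers the ranges were −0.12 to 0.14, −0.14 to 0.19 and −0.13 to 0.20 in the same order of groups, and for endothelial markers −0.18 to 0.04, −0.07 to 0.21 and −0.04 to −0.01. Their part in the members' values was not tested. None of these lists held a gene that passed in a comparison with control. Higher after betamethasone were 9 of 12 endothelial markers (median log2 change 0.12) and 8 of 12 pericyte and smooth muscle markers (0.06). So were 2 of 6 choroid plexus (−0.06), 3 of 5 border macrophage (0.03) and 5 of 5 red cell markers (0.23). The choroid plexus and border macrophage medians changed sign under at least 1 of 4 other scalings. Of single genes fixed by name, Cldn5 of endothelium was at 0.61 and Acta2 of smooth muscle at 0.05. Ttr of choroid plexus was at −1.04 (SE 0.78), Hbb of red cells at 0.23 and Cd163 of border macrophages at −0.04. Oligodendrocyte markers, which ran against the members, were lower after betamethasone for 8 of 8 (median log2 change −0.58) and with ketamine for 7 of 8 (−0.48). Under 4 other scalings their medians were −0.57 to −0.67 after betamethasone and −0.44 to −0.57 with ketamine. Their mean deviation ran from −0.04 to 0.69 in control, from −0.73 to 0.09 after betamethasone and from −0.45 to 0.28 with ketamine.

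**Figure D4:**
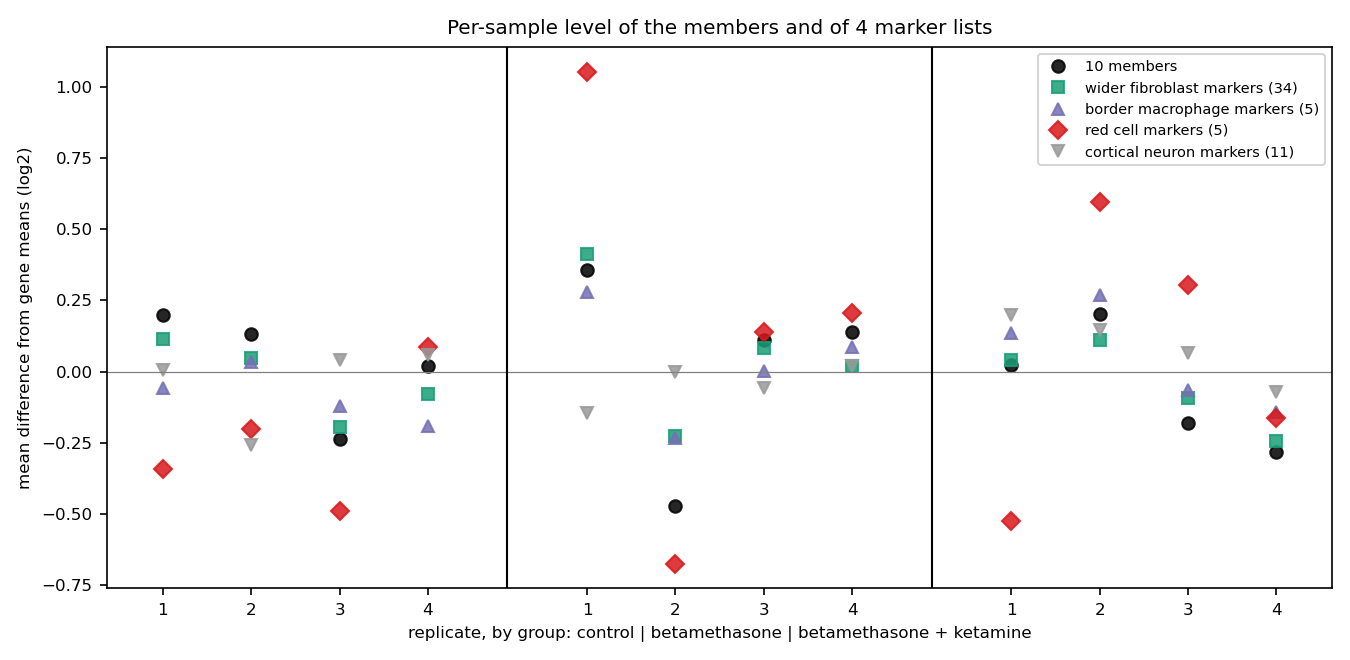
Mean difference from the gene means (log2) in each sample for the 10 genes and 4 marker lists, with the number of tested genes in brackets. The members, the wider fibroblast markers and the border macrophage markers are high in betamethasone replicate 1 and low in replicate 2, the red cell markers spread further, and the neuron markers do not follow.

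As the members moved together, the sequence upstream of their starts was looked at where RefSeq promoters (GRCr8) were at hand, which held for 5 members. The CCAAT box, which is known from collagen promoters, was searched as CCAAT on both strands in the 250 bases before the start. It was found for Col1a2, Lum and Aldh1a2, 3 of 5, and in 34.0% of 33469 promoters. The letters TATAAA, searched the same way, were found for Col1a2 and Ogn, 2 of 5, and in 12.9% of promoters. A match is a description of the letters and no sign of binding. Distances are counted to the annotated start, and whether transcription begins there was not tested. Col1a2 and Aldh1a2 are printed with the matches in capitals, for Col1a2 the CCAAT on the other strand, 221 bases before the start, and TATAAA 170 bases before it, and for Aldh1a2 the CCAAT 85 bases before it. The windows are GRCr8 chr4:33518307-33518556 and chr8:80758391-80758640, plus strand.
Col1a2: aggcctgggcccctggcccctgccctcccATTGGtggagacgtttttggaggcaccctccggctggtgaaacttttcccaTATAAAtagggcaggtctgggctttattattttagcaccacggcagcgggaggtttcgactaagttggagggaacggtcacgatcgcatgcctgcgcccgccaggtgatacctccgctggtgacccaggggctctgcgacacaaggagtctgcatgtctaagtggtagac
Aldh1a2: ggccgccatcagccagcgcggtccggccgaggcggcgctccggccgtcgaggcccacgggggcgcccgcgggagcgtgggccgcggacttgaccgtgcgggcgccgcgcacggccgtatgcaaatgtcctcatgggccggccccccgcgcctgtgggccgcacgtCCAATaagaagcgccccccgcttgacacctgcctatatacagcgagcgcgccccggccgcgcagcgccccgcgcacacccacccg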

How the data were processed

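The deposited scanner files hold spot and local background signals as intensity values, as written by Feature Extraction 11.5.1.1 for the control slide and by 11.0.1.1 for the other, per the file headers, while the submitters' processing notes name 10.7.3.1. The deposited value table holds a ratio to each column's median (every column median 1). Its columns for control replicates 1 and 2 match the scanner data of replicates 3 and 4 and the reverse, so it served only as an alternative. The names of the control scanner files carry the value table's numbering, so which numbers are right is not settled. Control replicate numbers here follow the sample labels. Group means do not depend on them, whereas the fit with the replicate number as a block does. Log2 values were computed here from the deposited intensity values.

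Mean signals were corrected with median local background (normexp, offset 50) and normalised by loess within and Aquantile between arrays, with control and outlier spots left out. Each channel was a sample. Spots of a probe were averaged. A probe entered if 3 or more of the 4 samples in some group were well above background (21770 of 30367 probes). Probes were named from the RefSeq table by accession (18355), symbol (2758) or synonym (422), and 8832 kept the name in the file. The brightest probe stood for a gene, which left 18688 genes. The fit used limma 3.58.1 under R 4.3.3, with statmod 1.5.0 for the block, all 12 samples, a dye term and the array as a random block (correlation 0.56). P-values are 2-sided, adjusted by Benjamini and Hochberg over all genes (threshold 0.05). The model was also tested on simulated data.

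The members and all gene lists were chosen with earlier results of these data known. All members are named, together with the 5 most similar genes, list genes past the threshold and list genes fixed by name, of which 2 are not reported here. Groups follow the labels. The number of arrays, 2 per group, limits the precision. Exon and UTR annotation of the rn4 positions was not used here. Other settings, 13 in all, covered background, normalization, filter, probe, block, masked areas, left-out samples and arrays, and samples fitted. After the data were seen, similarity without each array and list medians by scaling were added.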

Additional observations from a re-analysis of the deposited data

Results flagged for a closer look

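The second Fn1 probe (A_64_P077570) read 7.68 in betamethasone replicate 3, while the other 3 animals of the group read 7.43 to 7.47, a gap of 0.86 of the group's range. Of 35 groups of 4 values tested for a sample far from the others, this was the 1 found, where chance gives about 1 in 20. That probe lay near background in most samples.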

How the results depend on the processing

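No member passed in limma under any of the alternatives run. Of 867 alternative values for single members, 845 stayed within 1 SD of the reported one. That is the SD between animals of a group, 0.19 (Lum) to 0.53 (Col1a1). It is wider than most of the changes, so a value within it can differ in sign. Some settings also leave a change nearly as it was by design, such as a left-out control sample between ketamine and saline. The median log2 change of the members after betamethasone moved to 0.29 under loess with channel medians set equal. The count of all genes passing after betamethasone (46) and with ketamine (17) was 85 and 211 with processed signals, 0 and 0 under that loess, 17 and 5 in the deposited value table, and 79 and 39 with no filter. It was 979 and 777 with no array block, 3 and 1 with array means as replicates, and 243 and 2 with only the groups compared. With spots in areas of departing spots left out it was 68 and 24 of 17698 genes. Between ketamine and saline (0), 3 genes passed with processed signals, 1 with no filter and 1 with no array block. With the replicate number as a block in place of the dye, 28 and 14 genes passed in the comparisons with control and no member did. Replicate numbers share only a number: samples of the same number correlated at −0.07 to 0.09 in their deviations. Of genes that passed, 60.9% and 64.7% were higher, against 71.8% and 91% with processed signals and 29.4% and 20% in the value table. The median of all genes with ketamine moved from 0.07 to 0.19 with processed signals, and between ketamine and saline from 0.05 to −0.10 under that loess.

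With 1 sample or array left out, the count after betamethasone ran from 3 (without betamethasone replicate 2) to 495 (without the array of ketamine samples 1 and 2). With ketamine it ran from 3 (without the array of betamethasone samples 3 and 4) to 3098 (without that of ketamine samples 3 and 4), and between ketamine and saline from 0 to 2293 (without the same array). In the last fits ketamine and 1 array cannot be told apart. The members' median after betamethasone ran from −0.23 (without betamethasone replicate 1) to 0.24 (without replicate 2), and between ketamine and saline from −0.30 (without betamethasone replicate 2) to 0.14 (without the array of ketamine samples 3 and 4). With ketamine against control it ran from −0.20 to 0.13. For Ogn the change with ketamine was −0.56 without the first ketamine array and 0.53 without the second, and for Dcn after betamethasone 0.46 and −0.26 without the first and the second control array. The cause was not tested.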
